A study of Mus musculus with 2 samples.

Results

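The major urinary proteins are small secreted carriers of the lipocalin family, made in bulk by hepatocytes and passed through the blood into urine, where they hold and release volatile pheromones. In mouse liver their transcription is much higher in males, and it depends on pulsed growth hormone acting through its receptor, the kinase JAK2 and the transcription factor STAT5B. Because their messages are so abundant in hepatocytes, they also turn up in the droplets of other cells when hepatocytes break open. Described here are 10 rows of the count table, Mup2, Mup3, Mup7, Mup10, Mup11, Mup12, Mup15, Mup18, Mup20 and Mup21, of 31053 genes in all and of 21 rows named as Mup genes. They were chosen by name, and a part of them was already known to be far lower in one library of these data, so their difference between libraries is given as a description, with no test.

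Cells came from perfused livers of C57BL/6 mice and were counted with 10x Chromium 3' reagents, which tag each captured molecule with a unique molecular identifier (UMI). Both genotypes carried LaptTA, a tetracycline-repressed transactivator under the LAP promoter, which is active in hepatocytes and cholangiocytes. The control library had the genotype LaptTA;WT. The tetYAP 4W library had the genotype LaptTA; tetYAP and so also held the inducible, constitutively active YAP mutant, which had been on for 4 weeks after mice aged 4 weeks were moved from doxycycline food to a regular diet. Each group was 1 library, so intervals below are exact 95% intervals of counting error and carry no spread between animals. The control held 2989 barcodes and 9509885 UMIs (median 3117 a barcode) and the tetYAP 4W library 1524 barcodes and 6777210 UMIs (median 4150), with 0 barcode sequences shared. The median share of mitochondrial UMIs was 28.1% and 37.7%. The libraries also differed in sex-linked transcripts: Xist had 3 and 4859 UMIs, and 4 Y-linked genes together had 716 and 0 UMIs. The difference in genotype and the difference in these transcripts cannot be told apart, and since the members are sex-biased genes this holds for each ratio below. The labelled cell type could not be checked by 12 hepatocyte markers, since they did not mark a class: in the control they averaged 276 UMIs in hepatocyte-like, 289 in T or NK cell-like and 306 in endothelial cell-like barcodes. In tetYAP 4W they averaged 263, 283 and 264. Clusters led by markers of macrophages, endothelial, stellate, T or NK, B, myeloid and erythroid cells made up the other 280 control barcodes, against 2709 hepatocyte-like ones. In tetYAP 4W there were 78 hepatocyte-like barcodes, 711 of other named classes, and 735 in a pair of clusters that hold hepatocyte markers but were left unnamed. Their leading genes belong to pancreatic acinar cells (cluster 3, 468 barcodes) and platelets (cluster 5, 267 barcodes). Such genes were sparse: 8 acinar genes together had 0.38 UMIs a barcode in cluster 3, and 4 platelet genes 0.53 in cluster 5. The 12 hepatocyte markers had 376 and 326 UMIs a barcode there, and median mitochondrial shares were 61.1% and 35.6%.

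The 21 Mup rows all matched genes of a single stretch of chromosome 4, from 59956804 to 62150841 in GRCm38.p6, the assembly that mm10 names in the files. The ends of the members lie at Mup7 (60066469 to 60070475), Mup2 (60135913 to 60139977), Mup10 (60578260 to 60582276), Mup11 (60658466 to 60662432), Mup12 (60737381 to 60741416), Mup15 (61435787 to 61439833), Mup18 (61670177 to 61674132), Mup20 (62011337 to 62054143), Mup3 (62083476 to 62087317) and Mup21 (62147832 to 62150841). All are protein-coding. RefSeq promoter windows of 300 bases, 250 before and 50 after an annotated start, were at hand for 8 of the 10 members, the others being Mup12 and Mup20. Because the copies are close, molecules of one can be counted under another or lost, and the value of any single row is less certain than the sum. How close they are shows in a stretch just upstream, printed for the member with the largest difference between libraries (Mup11), for one that differs from it at the element in capitals (Mup18), and for the pair at the far end of the cluster (Mup3 and Mup21). Each is 5' to 3' on the minus strand and lies outside the annotated gene, and capitals mark CATTCC, the reverse complement of GGAATG, the core of the element bound by TEAD factors, through which YAP acts.
Mup11: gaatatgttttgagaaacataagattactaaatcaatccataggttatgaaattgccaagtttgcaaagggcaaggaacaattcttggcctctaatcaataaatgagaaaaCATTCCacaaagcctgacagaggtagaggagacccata
Mup18: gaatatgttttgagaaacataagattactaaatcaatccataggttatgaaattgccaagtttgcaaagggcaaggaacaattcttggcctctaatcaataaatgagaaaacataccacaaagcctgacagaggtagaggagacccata
Mup3: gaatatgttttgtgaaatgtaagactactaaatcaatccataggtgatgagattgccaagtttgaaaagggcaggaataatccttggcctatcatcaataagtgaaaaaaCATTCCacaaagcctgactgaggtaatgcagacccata
Mup21: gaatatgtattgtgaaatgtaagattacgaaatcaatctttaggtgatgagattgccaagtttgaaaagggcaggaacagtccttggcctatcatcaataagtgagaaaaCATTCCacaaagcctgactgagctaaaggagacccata

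These stretches are chr4:60662466-60662614 for Mup11, chr4:61674184-61674332 for Mup18, chr4:62087363-62087510 for Mup3 and chr4:62150881-62151028 for Mup21. Over this stretch of 148 or 149 bases, the 6 members other than Mup3 and Mup21 shared 96.0% to 99.3% of aligned positions in all 15 pairs. Mup3 and Mup21 shared 92.6% with each other and 85.2% to 87.9% with the other 6. In Mup7, Mup2, Mup10 and Mup15, which are not printed, the stretch runs into the annotated gene. GGAATG, on either strand, was found in 7 of the 8 member windows and in 14.7% of all 32851 promoter windows of this length. Mup18 was the member without it. TATATAA was found in 7 of 8 against 3.24% of all windows, Mup7 being the exception. TTNNGNAA, a C/EBP type element, was in 8 of 8 against 40.7%, and TTCNNNGAA, a STAT type element, in 0 of 8 against 8.30%. The 8 windows are copies of one another and are not independent, a match is not a bound site, and these letters may lie elsewhere in the locus.

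Summed over all barcodes, the 10 members had 292739 control UMIs and 10759 tetYAP 4W UMIs. They took 3.08% of all control UMIs and 0.159% of all tetYAP 4W UMIs. The sum was 19.4-fold lower in tetYAP 4W, a log2 ratio of -4.28 (-4.31 to -4.25). All 10 were more than 2-fold lower and 6 of 10 more than 16-fold lower, where 7.89% and 0.285% of the 12621 genes with at least 10 UMIs were. The members were picked with this contrast known, so nothing is read from these counts. The median of all genes lay at a log2 ratio of 0.60.

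The members spanned more than 3 orders of magnitude in the control, and the most abundant one differed least among the abundant ones. Mup3 had 186103 UMIs in the control and 10439 in tetYAP 4W, which is 19569 and 1540 CPM (UMIs scaled to the same library total). Its log2 ratio was -3.67 (-3.70 to -3.64). Mup20, also called darcin, the protein pheromone of male urine that draws females, had 44092 and 166 UMIs, a log2 ratio of -7.56 (-7.79 to -7.35). The intervals of Mup3 and Mup20 lay far apart, so within the cluster of genes the difference between libraries was unequal.

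Mup11 had 30825 UMIs in the control and 49 in tetYAP 4W. Its log2 ratio of -8.81 (-9.24 to -8.41) was the lowest of the 12621 genes once counts under 3 were set to 3. Cyp4a12a, a fatty acid hydroxylase higher in males, with 1875 and 2 UMIs, would be lower by its own count (interval -12.4 to -7.53). Mup21 had 25498 and 63 UMIs, a log2 ratio of -8.17 (-8.55 to -7.82). Mup21 shares more of its upstream stretch with Mup3 than with Mup11, and its ratio lay by that of Mup11. Mup7 had 4735 and 23 UMIs, a log2 ratio of -7.20 (-7.86 to -6.61). Mup20, Mup11, Mup21 and Mup7 thus lay below Mup3 in level and above the rarer rows.

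Mup18 and Mup12 came next, with 646 and 610 UMIs in the control. In tetYAP 4W they had 2 and 4 UMIs. With the 2 UMIs of Mup18 set to a floor of 3, its log2 ratio was -7.26, and the interval from its own count ran from -10.9 to -5.99. That of Mup12 was -6.76 (-8.64 to -5.40). The remaining members were rare in the control as well. Mup10 had 119 UMIs in the control and 7 in tetYAP 4W, a log2 ratio of -3.60 (-4.94 to -2.51). Mup15 had 58 and 3 UMIs (-3.78, interval -6.10 to -2.17), and Mup2 had 53 and 3 (-3.65, interval -5.98 to -2.03). In order of the control level, Mup18 and Mup12, and then Mup15 and Mup2, are neighbours whose counting intervals overlap.

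**Figure D1:**
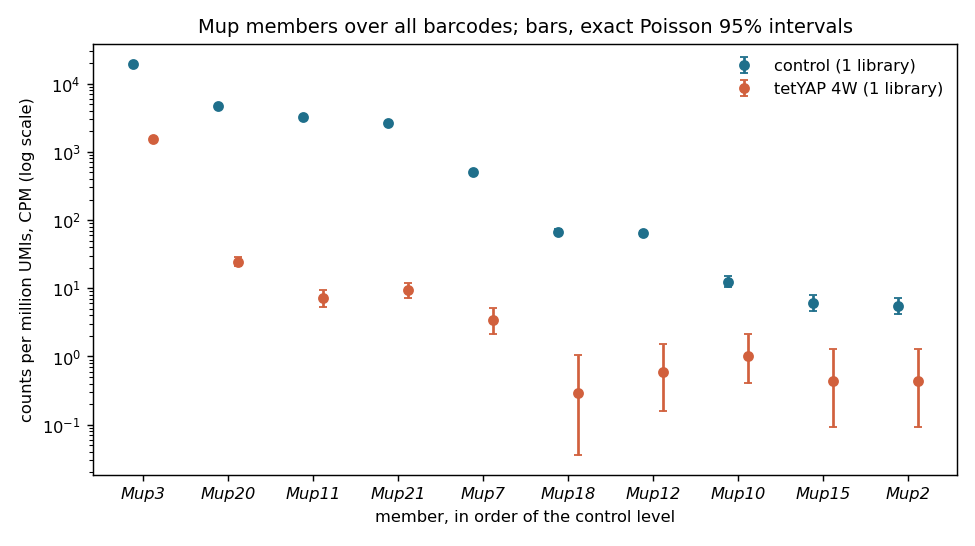
CPM of the 10 members over all barcodes of each library, on a log axis, in order of the control level; bars are exact Poisson 95% intervals and each point is 1 library. Control lies above tetYAP 4W for every member, from 19569 against 1540 for Mup3 to 5.57 against 0.443 for Mup2.

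The 3 rare members lay close to Mup3 in their ratio, though with 3 to 7 UMIs in tetYAP 4W and wide intervals. Each row's level against Mup3 restates that ratio and adds no separate measure. Mup10 had 0.0639 UMIs per 100 Mup3 UMIs in the control and 0.0671 in tetYAP 4W. Mup15 had 0.0312 and 0.0287, and Mup2 had 0.0285 and 0.0287. Among rows of the family that are not members, Mup5, a copy also made in salivary gland, had 0.0865 and 0.0862. For the abundant members the same measure was far from equal. Mup11 had 16.6 UMIs per 100 Mup3 UMIs in the control and 0.469 in tetYAP 4W, Mup20 had 23.7 and 1.59, and Mup21 had 13.7 and 0.604. Whether molecules of Mup3 were counted under the rare rows was not tested.

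The other 11 Mup rows of the table were lower in tetYAP 4W too. Of the 10 with at least 10 UMIs, all 10 were more than 2-fold lower and 5 more than 16-fold lower. Of all 12621 genes with that many UMIs, 7.89% and 0.285% were. The median log2 ratio of these 10 rows was -4.32, against -6.98 for the members. Mup17 was the most abundant, with 108239 UMIs in the control and 1753 in tetYAP 4W, a log2 ratio of -5.46 (-5.53 to -5.39). Mup9 had 35038 and 802 UMIs (-4.96), Mup1 had 6660 and 73 (-6.02), and Mup16 had 4250 and 22 (-7.11). Mup8 had 251 and 23 UMIs (-2.96, interval -3.64 to -2.34). Mup13, with 19 and 1 UMIs, and Mup19, with 8 and 0, are too rare to be placed, since their ratios rest on the floor. With all 21 rows in the sum, the family took 4.72% of control UMIs and 0.199% of tetYAP 4W UMIs, a log2 ratio of -4.57.

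Within hepatocyte-like barcodes alone the sum was 267081 UMIs in 2709 control barcodes and 472 UMIs in 78 tetYAP 4W barcodes. The log2 ratio was -4.39 (-4.52 to -4.26), a 21.0-fold lower share of UMIs. It was -5.60 with TMM factors, -5.58 with DESeq2 size factors and -3.56 at Leiden resolution 1.2. Of the 472 UMIs, 458 were Mup3, 8 were Mup20, and Mup11 and Mup21 had 3 each. The other 6 members had 0 UMIs there, a count whose exact interval reaches 3.69 UMIs. Of the members, 7 of 10 were more than 2-fold lower, where 7.30% of the 10042 genes with at least 10 UMIs in this class were. Genes with few control UMIs could not score lower under the floor of 3, so that share runs low. Mup7, at 4303 UMIs in the control and 0 in tetYAP 4W, was 53.1-fold lower with the 0 set to the floor of 3. The upper end of its log2 interval was -5.43. For Mup2 and Mup15, with 49 and 56 control UMIs, 78 barcodes are too few to show a difference. Mup10, with 112, was lower by its interval (upper end -0.15), but its ratio at the floor, -0.47, was short of 2-fold. The 7 past 2-fold included Mup3 at a log2 ratio of -3.78 (-3.92 to -3.65). The 735 unnamed barcodes, which hold more hepatocyte marker UMIs than the hepatocyte-like ones (358 against 263 a barcode), had 7.87 member UMIs a barcode. Counted as hepatocyte-like, an alternative chosen after the data were seen, they gave a log2 ratio of -4.11 for the sum and 10 of 10 members more than 2-fold lower.

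The class that was hepatocyte-like in both libraries was not the same population in each. In the control, 2666 of the 2709 barcodes fell into clusters 0, 1, 2 and 10, which hold no tetYAP 4W barcode. Cluster 9 was the only hepatocyte-like cluster with barcodes of both, 43 and 78. Over cluster 9 alone the log2 ratio was -2.40, since its control barcodes held only 14.7 member UMIs each (13.5 to 15.8) against 98.8 in cluster 0. Those 43 control barcodes had a median of 1626 UMIs and 66.7% mitochondrial UMIs. The tetYAP 4W ones had a median of 3723 UMIs and 32.7%. Malat1, a nuclear RNA, stood at 14064 CPM in them, 2569 in the 43 control ones and 525 to 610 in control clusters 0, 1 and 2. Between hepatocyte-like clusters above their library's median Malat1 level (1076 and 78 barcodes), the log2 ratio was -4.43 (-4.56 to -4.30). Of those 1076, 958 were of cluster 1, at 610 CPM, so Malat1 levels still differed.

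Per barcode, the members were present everywhere in the control. The lowest control barcode held 2 member UMIs, the median was 99 (quartiles 89 and 109) and the highest 254, and 0 control barcodes lacked them. In tetYAP 4W the range was 0 to 104 with a median of 7 (quartiles 5 and 9), and 25 barcodes held none. The libraries overlapped little: 32 control barcodes were at or under the tetYAP 4W 95th percentile of 13 UMIs. A single tetYAP 4W barcode reached the control 5th percentile of 59. It had 104 member UMIs, 103 of them Mup3, among 7301 UMIs, with 8.11% mitochondrial UMIs, 900 hepatocyte marker UMIs and 0 Xist UMIs, and lay in cluster 5. The next highest tetYAP 4W barcode had 34. At the low end of the control, 91 barcodes held under 40 member UMIs, of which 40 were in cluster 9 and 16 in the macrophage-like cluster.

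Cell classes not known to transcribe these genes held nearly as many member UMIs as hepatocyte-like barcodes did. In the control, hepatocyte-like barcodes averaged 98.6 member UMIs (98.2 to 99.0, n = 2709 barcodes). T or NK cell-like barcodes averaged 102 (96.9 to 107, n = 15), stellate or mesenchymal cell-like barcodes 98.1 (96.5 to 99.6, n = 157) and endothelial cell-like barcodes 96.6 (94.1 to 99.1, n = 60). These intervals overlap or lie within a few UMIs of that of hepatocyte-like barcodes. Neutrophil or monocyte-like barcodes averaged 108.5 (98.5 to 119, n = 4) and erythroid cell-like barcodes 92.0 (82.8 to 102, n = 4), and the 1 B cell-like barcode held 100. Macrophage-like barcodes were the exception, at 52.3 (50.01 to 54.6, n = 39), with a median of 42 and a range of 3 to 159. All other named classes together held 92.9% of the hepatocyte-like level per barcode (91.8% to 94.1%), and 99.4% without the macrophage-like ones. Cells of 1 library are not replicates, and these intervals cover counting only.

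In tetYAP 4W most classes stood at a level lower by more than an order of magnitude. Hepatocyte-like barcodes averaged 6.05 member UMIs (5.52 to 6.62, n = 78). T or NK cell-like barcodes averaged 7.31 (n = 130), stellate or mesenchymal cell-like 6.82 (n = 34), B cell-like 6.80 (n = 46), neutrophil or monocyte-like 6.80 (n = 61), erythroid cell-like 6.79 (n = 38) and endothelial cell-like 6.48 (n = 126). Macrophage-like barcodes were lowest, at 5.50 (5.22 to 5.78, n = 276), and the unnamed cluster 5 highest, at 9.74 (9.37 to 10.1), while the unnamed cluster 3 was at 6.81 (6.57 to 7.05). The other named classes held 105% of the hepatocyte-like level (95.1% to 115%). Which side is higher depended on the classes: the other classes held 61.4% at Leiden resolution 1.2, 76.3% among barcodes of at most 30% mitochondrial UMIs, 81.4% with classes set per barcode and 82.2% with the unnamed clusters counted as hepatocyte-like. Per UMI rather than per barcode, the other named classes held 77.9% of the hepatocyte-like level in the control and 89.1% in tetYAP 4W.

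**Figure D2:**
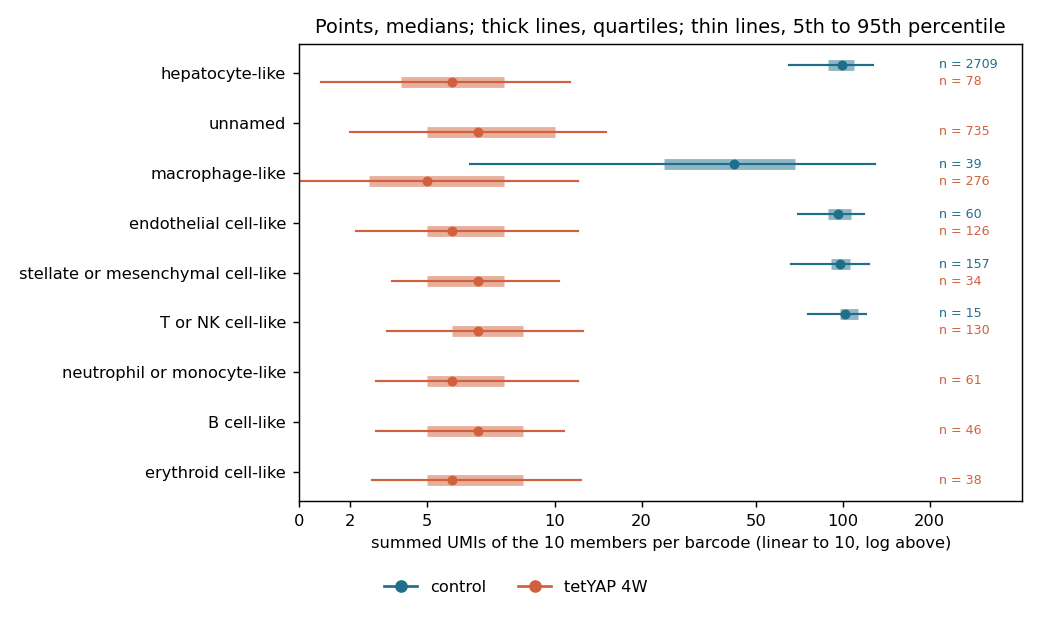
Summed UMIs of the 10 members per barcode by cell class and library, for classes of at least 15 barcodes (linear axis to 10, log above); points are medians, thick lines quartiles and thin lines the 5th to 95th percentile over barcodes. Medians are 96.5 to 102 in 4 control classes and 42 in macrophage-like barcodes, and 5 to 7 in all tetYAP 4W classes.

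In the control, all 10 members held at least 50% of their hepatocyte-like level per barcode in the other named classes, as 99.7% of the 10505 genes with at least 10 UMIs did. Mup3 stood at 92.7% (91.2% to 94.2%), Mup20 at 89.6% (86.7% to 92.7%), Mup11 at 95.9% (92.2% to 99.7%) and Mup21 at 96.2% (92.1% to 100.4%). The 21 genes of secreted plasma proteins, such as albumin and apolipoproteins, had a median of 98.6% (range 89.1% to 119%), against 94.3% for the members. In tetYAP 4W, where 79.4% of genes were at 50% or more, 5 members had enough UMIs and 4 of these 5 were at 50% or more. Mup3 stood at 104% (94.8% to 115%). The other 4 rested on 0 to 8 hepatocyte-like UMIs, and Mup7, at 43.9%, had 0 there, raised to the floor, and 12 in the other classes. A UMI of Mup3 was found in 100% of control hepatocyte-like barcodes (median 3097 UMIs) and in 100% of the 15 T or NK cell-like ones (median 4053). In tetYAP 4W, Mup3 was found in 94.9% of hepatocyte-like and 100% of T or NK cell-like barcodes (medians 3723 and 4774). Thinned to 1000 UMIs a barcode, these shares were 73.1% and 78.5%. In the same library they were 65.1% in endothelial cell-like, 67.4% in macrophage-like, 78.9% in erythroid cell-like and 80.4% in B cell-like barcodes. Whether member molecules in the other classes came from free RNA, from doublets or from the cell in the droplet was not tested.

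The proportions among the members were also kept from class to class. In the control, Mup3 made up 62.6% to 64.6% of member UMIs in the 5 classes of at least 15 barcodes, Mup20 14.1% to 15.996%, Mup11 10.1% to 11.1%, Mup21 8.63% to 9.46% and Mup7 1.57% to 1.83%. In tetYAP 4W, Mup3 made up 96.1% to 99.1% in 9 classes, and Mup20 0% to 2.33%. Macrophage-like control barcodes, low in amount, had the control's proportions, with Mup20 at 15.996% (14.4% to 17.7%). Control clusters 9 and 10, both hepatocyte-like, departed. Mup20 was 21.7% of member UMIs in control cluster 9 (137 of 630, interval 18.6% to 25.2%) and 19.6% in cluster 10 (18.6% to 20.6%, 75 barcodes), against 15.1% in cluster 0 (14.9% to 15.3%) and 14.98% in cluster 1 (14.8% to 15.2%). Mup3 was 56.8% and 59.1% there, against 63.7%.

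**Figure D3:**
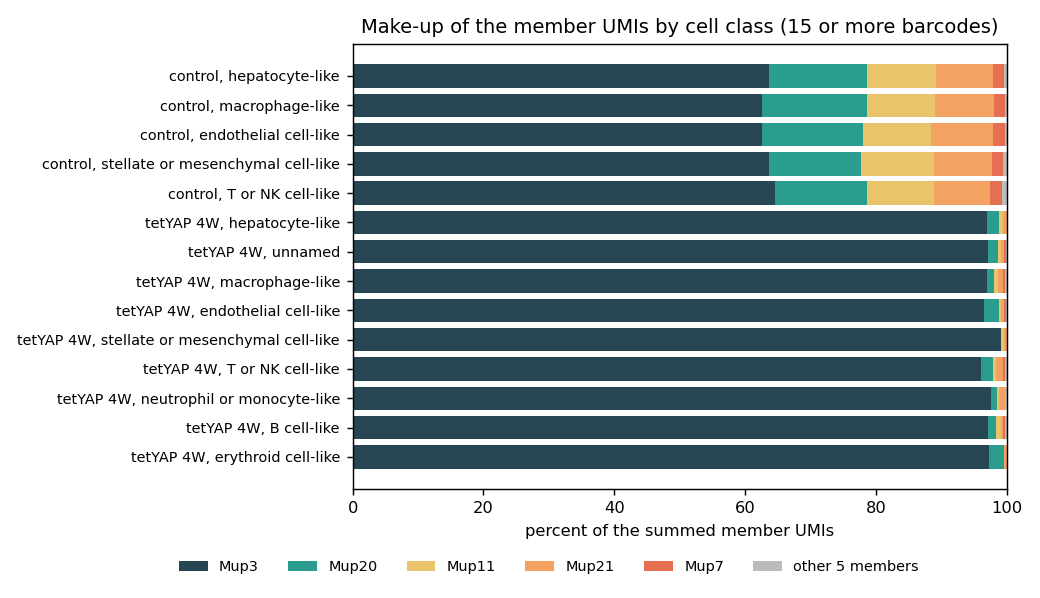
Percent of the summed member UMIs taken by Mup3, Mup20, Mup11, Mup21, Mup7 and the other 5 members in each cell class of at least 15 barcodes. Bars of a library are alike across classes, with Mup3 at 62.6% to 64.6% in the control and 96.1% to 99.1% in tetYAP 4W.

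Set against the count of other hepatocyte messages, the count of members was similar in some control classes and lower in others. Per 100 UMIs of 12 hepatocyte markers there were 35.7 member UMIs in control hepatocyte-like, 35.6 in stellate or mesenchymal, 35.3 in T or NK, 31.6 in endothelial and 26.0 in macrophage-like barcodes. In control cluster 9 there were 15.8. In tetYAP 4W the named classes ran from 2.30 in hepatocyte-like to 2.66 in erythroid cell-like barcodes. The unnamed clusters lay outside that range on either side, cluster 3 at 1.81 and cluster 5 at 2.99. The sum of the 12 markers averaged 276 UMIs in control hepatocyte-like barcodes and 263 in tetYAP 4W ones, while the sum of the members differed far more. Single markers were not alike in the libraries. Alb had 88.1 UMIs a hepatocyte-like barcode in the control and 137 in tetYAP 4W, and Serpina3k had 24.4 and 4.78.

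**Figure D4:**
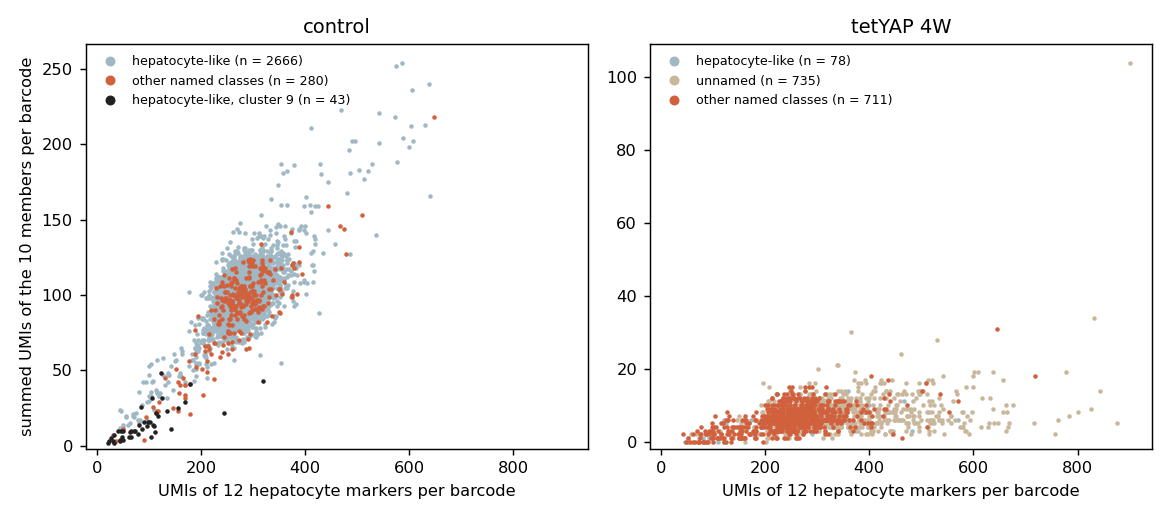
Summed member UMIs against UMIs of 12 hepatocyte markers, 1 point a barcode, with the vertical axis scaled separately for each library. Control barcodes of all classes lie along 1 band centred near 99 member UMIs, control cluster 9 (n = 43) sits at its low end, and tetYAP 4W barcodes lie mostly under 20 with 1 barcode at 104.

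Among control hepatocyte-like barcodes the members were spread close to evenly. After thinning to 1000 UMIs a barcode (2686 barcodes, 23 shallower ones left out), the variance over the mean was 1.02 for Mup11 and Mup7, 1.08 for Mup21, 1.19 for Mup20, 1.48 for Mup3 and 1.71 for the sum, where 1 is the value of pure counting. The 21 secreted genes ranged from 0.975 to 1.68. For the sum it was 1.23 in T or NK cell-like and 1.52 in endothelial cell-like barcodes, and 2.49 in macrophage-like ones. The share of members in a barcode had a Pearson r of 0.62 with the 12 markers and -0.66 with the mitochondrial share over these 2709 barcodes. It had an r of 0.38 with a list of periportal genes and -0.01 with a list of pericentral genes. These barcodes share 1 library, and each measure has total UMIs in its denominator, so the values are descriptive.

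The genes whose level across 13 units of class and library (at least 20 barcodes each) was most like that of the summed members, among 7813 genes, were Serpina1e (Pearson r 0.997), Serpina3k (0.994), Cat (0.990), Cyp4v3 (0.990) and Scp2 (0.988). Serpina1e and Serpina3k are secreted protease inhibitors of the serpin family, Cat is catalase, Cyp4v3 a fatty acid hydroxylase and Scp2 a sterol carrier. The units of a library share its total and may share free RNA, and most of the variation lay between the libraries. Within the control, over 2709 hepatocyte-like barcodes and 322 genes, the most alike were Ttr (0.75), Fabp1 (0.72), Apoa2 (0.71), Apoc1 (0.67) and Apoa1 (0.64). Apart from Fabp1, a cytosolic fatty acid carrier, these are plasma proteins.

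Genes with known higher expression in male liver were lower in tetYAP 4W along with the members. Of 19 such genes with enough UMIs (of 20 listed), 18 were more than 2-fold lower and 12 more than 16-fold lower, where 7.89% and 0.285% of the 12621 genes were, the median log2 ratio being -4.87. Serpina1e had 91284 UMIs in the control and 1990 in tetYAP 4W (-5.03), and Gstp1, a glutathione transferase, had 23377 and 555 (-4.91). Cyp2d9, a steroid hydroxylase, had 9724 and 193 (-5.17), Selenbp2 had 6084 and 475 (-3.19), and Nudt7 had 5878 and 442 (-3.24).

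Genes with known higher expression in female liver went the other way. Of 19 with enough UMIs, 18 were more than 2-fold higher, where 38.3% of the 12621 genes were, with a median log2 ratio of 5.56. A1bg had 3 UMIs in the control and 2168 in tetYAP 4W (9.99, interval 8.44 to 12.3). The sulfotransferases Sult2a1 and Sult2a2 had 5 and 4 UMIs in the control and 1291 and 1170 in tetYAP 4W. Prlr, the prolactin receptor, had 525 and 1133 (1.60), and Cyp4a10, a fatty acid hydroxylase, had 165 and 493 (2.07).

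Genes of the growth hormone pathway, from receptor to targets, went in both directions over all barcodes. Of 15 genes, 3 were more than 2-fold lower (Ghr, Bcl6 and Onecut1) and 2 higher (Jak2 and Cux2). The median log2 ratio was -0.01. Of the 12621 genes, 7.89% were that much lower and 38.3% higher. In hepatocyte-like barcodes 0 of the 15 were lower and 8 higher, with a median of 1.09 and Ghr at -0.34 (-0.68 to -0.01). Jak2 is among the 8 only through the floor of 3, with 33 and 1 UMIs (interval -5.64 to 2.29). Bcl6, with 123 and 3 UMIs, could not have scored 2-fold lower under that floor. All genes had a median of 1.21 there, with 733 of 10042 lower and 5581 higher. These values rest in part on the floor of 3, since a gene with 35 and 0 UMIs there scores 1.21. They are no measure of a shift of all genes. Ghr, the growth hormone receptor, had 2989 UMIs in the control and 705 in tetYAP 4W, a log2 ratio of -1.60 (-1.72 to -1.48). Igf1, the circulating growth factor it induces, had 6826 and 2800 (-0.80), and Igfals, its binding partner in plasma, had 850 and 603 (-0.01). Hnf4a, a regulator of hepatocyte genes, had 904 and 386 (-0.74), and Nr3c1, the glucocorticoid receptor, had 391 and 379 (0.44). Jak2, the kinase at the receptor, had 46 and 86 UMIs, a log2 ratio of 1.39 (0.86 to 1.94). Only 33 and 1 of these Jak2 UMIs lay in hepatocyte-like barcodes, so the higher value rests on barcodes outside that class. The class held 2709 of the 2989 control barcodes and 78 of the 1524 tetYAP 4W ones. Cux2, a transcription factor higher in female liver, had 0 and 49 UMIs, a log2 ratio of 4.52 with the 0 set to the floor of 3. The lower end of its interval was 4.17. Stat5b had 159 and 118 UMIs, a log2 ratio of 0.06 (-0.30 to 0.41).

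The other lipocalins and the secreted proteins had medians nearer to 0 than that of the members. Of 9 other lipocalins with enough UMIs, 4 were more than 2-fold lower and 4 higher, with a median log2 ratio of -0.39. Of the 12621 genes, 7.89% were that much lower and 38.3% higher. Rbp4, the plasma carrier of retinol, had 38755 and 10886 UMIs (-1.34), and Ambp, the precursor of a plasma microglobulin, 14275 and 7750 (-0.39). The acute-phase protein Orm1 had 10130 and 3086 UMIs (-1.23), C8g, a complement subunit, 8185 and 2117 (-1.46), and Apom 5930 and 1854 (-1.19). The 4 higher ones were rare, and some lay as far from 0 as Mup3: Lcn2, an iron-scavenging protein, had 11 and 111 UMIs (3.82), Orm3 had 2 and 47 (interval 3.11 to 8.13), Orm2 had 43 and 82 (1.42) and Ptgds had 12 and 28 (1.71). Of the 21 secreted genes, 9 were more than 2-fold lower and 1 higher, beside the same 7.89% and 38.3% of all genes. Their median log2 ratio was -0.60 and their lowest value -2.69. Alb had 264456 UMIs in the control and 253772 in tetYAP 4W (0.43), Apoe 189591 and 126822 (-0.09), Apoa2 246473 and 56865 (-1.63), Fabp1, counted with this list, 171510 and 20146 (-2.60), and Ttr 158505 and 31299 (-1.85).

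**Figure D5:**
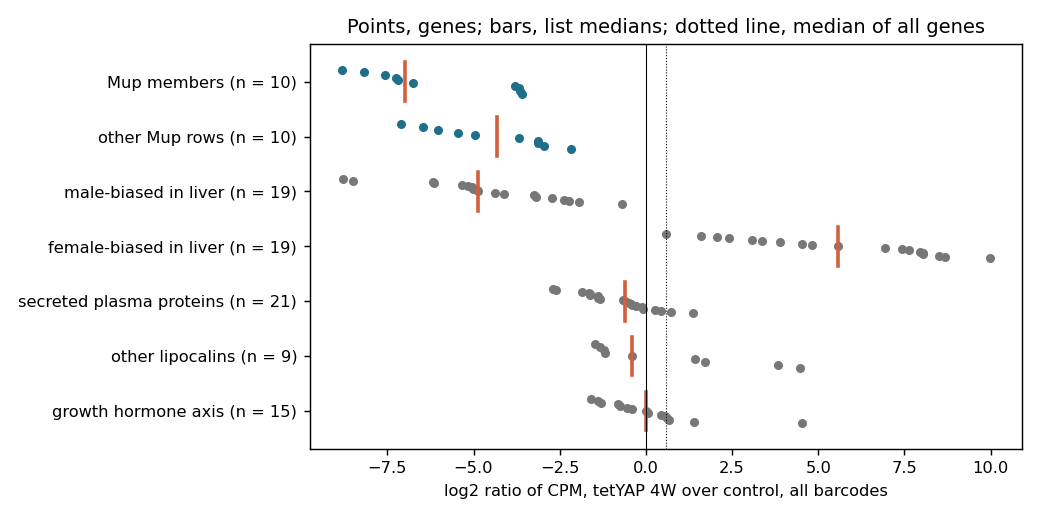
Log2 ratio of CPM, tetYAP 4W over control over all barcodes, for genes with at least 10 UMIs in each list; points are genes, bars list medians and the dotted line the median of all genes. Medians are -6.98 for the members, -4.32 for the other Mup rows, -4.87 for male-biased, 5.56 for female-biased, -0.60 for secreted and -0.01 for growth hormone axis genes.

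The YAP gene served as the check of the induced transgene, with the limit that the files do not say whether transgene molecules can be counted under Yap1. Yap1 had 155 UMIs in the control and 128 in tetYAP 4W, a log2 ratio of 0.21 (-0.14 to 0.56). In hepatocyte-like barcodes, the class in which the transgene is driven, it had 137 and 16 UMIs, a log2 ratio of 1.66 (0.81 to 2.41). The median of all genes there, 1.21, rests in part on the floor for rare genes. The ratio of Yap1 does not, so the values are not alike. In a list of Yap1 and 4 known targets, 4 genes had enough UMIs, and 3 of them, targets all, were more than 2-fold higher, where 38.3% of all genes were. Cyr61, a secreted matrix protein, had 20 and 140 UMIs, and Amotl2, a junction protein, 85 and 223. In the same barcodes the members were at the levels given above.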

How the data were processed

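Single cells from perfused mouse livers were profiled in 2 libraries, 1 per genotype, grouped by the genotype in the labels. The authors deposited counts, whole numbers of UMIs per gene and barcode in 1 table of 31053 genes and 4513 barcodes. Its methods and labels give cellranger 3.0.0, the mm10 assembly, down-sampling to 3000 cells a condition and the exclusion of cells above 7500 UMIs. The table holds 2989 and 1524 barcodes, the largest with 7493 UMIs, and all were used. The labels name v2 and v3 kits, and the methods give v3 for perfused liver.

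Here counts were scaled to 10000 per barcode and log-transformed. Leiden clusters (resolution 0.8) were found in scanpy 1.11.5 from 15 neighbours in 20 principal components of the 2000 most variable genes, with all Mup rows left out. A cluster was named for a class where at least 3 of its markers had 10 UMIs and 3-fold the level of the library's other barcodes, and otherwise for hepatocytes where 3 of their markers were present. Clusters whose 10 leading genes went against the hepatocyte name stayed unnamed. No doublet caller was run, so doublets were not removed.

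For each library, the UMIs of a gene were added up and divided by the total. Log2 ratios set tetYAP 4W over control after raising counts below 3 to 3, with 95% intervals from the exact binomial test given the sum. Intervals of sums are exact Poisson and those of shares exact (Clopper-Pearson), and they cover counting error only. Genes with under 10 UMIs over the libraries were left out. With 1 library a group no test was made, and edgeR 4.0.16 and DESeq2 1.42.0 were used only for scaling factors. UMIs count transcript 3' ends, so levels are per molecule and not per length. Only the log2 ratios and the count intervals were tested on simulated counts, and the thinning on a part of these barcodes. The clustering and the naming of classes were not tested in this way.

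Named were all members, the other Mup rows, up to 5 genes a list by total UMIs, and the 5 genes most like the sum by Pearson r of log2(value + 1). Genes named outside this rule (Stat5b, Jak2, Cux2, Bcl6, Onecut1, Cyp4a12a, Lcn2, Orm2, Orm3, Ptgds, Yap1, Cyr61, Amotl2 and Xist) were chosen after their values were seen. A gene of the growth hormone list is not reported here. The members and lists were chosen with earlier results of these data known. Promoter windows are from RefSeq (GRCm38.p6), aligned with Biopython 1.88.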

Additional observations from a re-analysis of the deposited data

How the results depend on the processing

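The sum of the members was lower in tetYAP 4W under every alternative tried. Over all barcodes the log2 ratio of -4.28 became -4.84 with TMM factors and -4.84 with DESeq2 size factors, -4.34 with totals free of Mup rows, -4.18 with barcodes weighted equally, -4.42 with barcodes of at most 30% mitochondrial UMIs, -4.18 after thinning to 1000 UMIs and -4.57 with all Mup rows. In hepatocyte-like barcodes the ratio of -4.39 became -5.60 with TMM, -5.58 with DESeq2 size factors, -4.13 under the mitochondrial limit, -4.24 after thinning, -4.72 with all Mup rows, -4.11 at Leiden resolution 0.4, -3.56 at 1.2 and -4.09 with classes set per barcode. Chosen after the data were seen, the unnamed clusters counted as hepatocyte-like gave -4.11 and cluster 9 alone -2.40. The level in other classes, 92.9% of hepatocyte-like in the control, was 98.9% at resolution 0.4, 95.6% at 1.2, 77.9% per UMI, 97.5% by medians, 91.7% under the mitochondrial limit and, chosen after the data were seen, 99.4% without macrophage-like barcodes. In tetYAP 4W the 105% became 61.4% at resolution 1.2, 81.4% with classes set per barcode, 89.1% per UMI, 76.3% under the mitochondrial limit (34 hepatocyte-like barcodes) and 82.2% with the unnamed clusters counted as hepatocyte-like, so which class is higher there depends on these settings, and the cause was not tested. The count of members more than 2-fold lower in hepatocyte-like barcodes stayed between 7 and 10.

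No paired analysis was possible because each group has 1 library. Depth limits the rare members most, since Mup2, Mup15 and Mup18 had 2 or 3 UMIs in tetYAP 4W.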
